A study of Danio rerio with 3 samples.

Results

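Gene expression after flow sorting was set against that after dissociation alone in 2 of the 3 single-cell libraries of the study, made from whole zebrafish larvae at 48 h post fertilization. The FACS library came from larvae that were dissociated and then passed through fluorescence-activated cell sorting (FACS), and the dissociation library came from larvae that were dissociated only. All larvae carried the AB wild type background, about 10 of them were used for a sample, and the tissue was taken apart for 30 min at 37°C in a buffer with 10 mM 4-thiouridine (4sU), a uridine analog that cells build into new RNA. Fixed cells of both libraries were treated with 10 mM iodoacetamide, which makes a 4sU base read as C in place of T. The cells to be sorted waited about 15 min on ice and were sorted for 10 min into a cooled tube that again held 4sU, while the sort buffer itself held none, so the sorted cells met 4sU once more. The gates removed only very small debris and the extremes of size and granularity. The third library, with a further 30 min on ice after sorting (FACS and ice), is given as a value beside the other pair.

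Members were chosen by the samples and a minimum count: the 4609 cells of the FACS library and the 11043 cells of the dissociation library, together 15652 of 25202 cells, and the 4562 genes with at least 250 unique molecular identifiers (UMIs, which tag single RNA molecules) in both, of 24550 genes with any UMI in the 3 libraries. With 1 library in each group no replicate error exists, and sizes are described without tests. The 95% intervals cover counting error alone: exact Poisson for a level, exact conditional binomial for a ratio, and Clopper-Pearson for a share. Anything else that differed between the preparations, the larvae or the droplet runs cannot be told apart from the sort.

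Taking a tissue apart with warm enzymes exposes cells to heat, loss of contact and shear. In both libraries the enzyme step was warmer than the water in which the larvae were grown. Cells answer within minutes by transcribing immediate early genes such as fos, jun and egr1, and heat shock genes, whose products are chaperones that refold proteins or hold them in solution. A sort sends the suspension through a nozzle as single drops and keeps those that pass the gates, so it adds time and handling and also decides which particles go on. In UMIs summed over cells, fewer cells of a type and less RNA per cell cannot be told apart.

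The FACS library held 23095410 UMIs and the dissociation library 50313576. A cell had a median of 3143 UMIs and 816 genes in the FACS library, and 2402 UMIs and 729 genes in the dissociation library. The libraries shared 11 cell barcodes, 0.239% of the FACS barcodes and 0.0996% of the dissociation barcodes. Levels are counts per 1000000 UMIs of the library (CPM), and a ratio is the CPM of the FACS library over that of the dissociation library. A gene was called higher at a ratio of at least 1.5 and lower at the inverse of that or less.

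Across the 4562 genes the median ratio was 1.066, and the 5th and 95th percentiles were 0.663 and 1.49. Of these genes, 226 were called higher (4.95%) and 231 were called lower (5.06%). The lower side reached much further: 117 genes were at least 2-fold lower (2.56%) and 25 at least 10-fold lower, against 36 genes at least 2-fold higher (0.789%) and none at least 10-fold higher. Because the FACS library was shallower, 250 UMIs stood for 10.8 CPM there and for 4.97 CPM in the dissociation library. The 373 genes under 10.8 CPM in the dissociation library could therefore pass only if they were higher after FACS, and 73 of the 226 genes called higher were among them. Those named below include ifitm5, col10a1a, nkx3.2, gfap, hoxb9a and cyr61, and the counts of calls per list hold such genes too. With 1 minimum CPM for both libraries, 153 of 4189 genes (3.65%) were called higher and 231 (5.51%) lower. Another 2907 genes reached 250 UMIs in the dissociation library alone, and 494 of them were at least 1.5-fold lower, against 8 genes that did so in the FACS library alone. The balance of calls moved with the scaling: higher calls were 49.5% of all calls as given, 60.3% with hemoglobin genes left out of the total (310 higher and 204 lower), 36.6% with the median ratio set to 1 (157 higher and 272 lower), 37.3% with muscle, lens and mitochondrial genes left out of the total, and 63.8% without the 5% of cells with most UMIs.

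**Figure D1:**
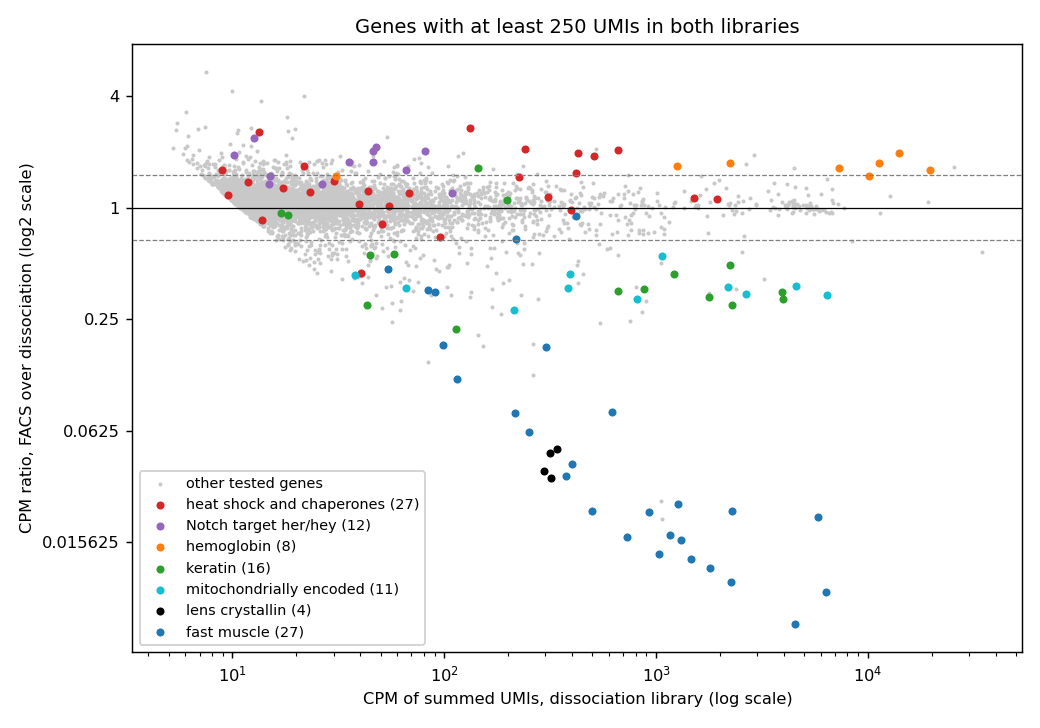
Each point is 1 of the 4562 genes with at least 250 UMIs in both libraries, with its CPM in the dissociation library on a log x axis and its CPM ratio, FACS over dissociation, on a log2 y axis. Most points lie near a ratio of 1 (median 1.066), muscle, lens and mitochondrial genes form the low group, and the highest ratio is 5.45.

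Skeletal muscle genes had the lowest list median. The fast muscle list (contractile proteins, calcium buffers and energy enzymes of fast fibers) made up 0.136% of all UMIs in the FACS library and 0.202% in the FACS and ice library, against 3.80% in the dissociation library, a ratio of 0.0357 (0.0353 to 0.0361). Of its 76 genes, 27 were tested and 25 were called lower, beside 5.06% of all genes. The median ratio of the 27 was 0.025, beside 1.066 over all genes. Of the others, 39 reached 250 UMIs in the dissociation library only and 10 in neither, so the share of all UMIs is the value that covers the whole list.

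Parvalbumins buffer calcium in fast fibers and let them relax quickly. The gene pvalb1 (ENSDARG00000037789) was at 25.4 CPM (23.4 to 27.5) in the FACS library and 62.5 CPM in the FACS and ice library, against 4533 CPM (4515 to 4552) in the dissociation library, a ratio of 0.0056 (0.00515 to 0.00607). This was 179-fold lower, and 261 cells of the FACS library had a UMI of it against 10340 cells of the dissociation library. The related pvalb2 was at 53 CPM in the FACS library, 118 CPM in the FACS and ice library and 6332 CPM in the dissociation library. The thin filament actin actc1b was at 124 CPM (119 to 128) in the FACS library, 238 CPM in the FACS and ice library and 5810 CPM (5789 to 5831) in the dissociation library. Muscle creatine kinase ckmb, which recycles ATP, was 44.1-fold lower, at 20.9 CPM in the FACS library and 922 CPM in the dissociation library. For each of these 4 genes the FACS and ice library lay between the other libraries and far nearer to the FACS library.

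Genes that direct the making of muscle did not go with those that contract. None of the 7 myogenic genes tested was called, and their median ratio was 1.22. Another 5 reached the minimum count in the dissociation library only. Over the 12 genes that reached it in either library, the median ratio was 0.955. Of these, 2 were at least 1.5-fold lower and none was at least 1.5-fold higher. The summed ratio of the whole list was 1.03 (0.990 to 1.07). The homeobox gene meox1, active in somites and early muscle precursors, was at 22.3 CPM (20.4 to 24.3) in the FACS library and 15.6 CPM (14.5 to 16.7) in the dissociation library, and six1b was at 22.2 CPM (20.3 to 24.2) in the FACS library and 27.0 CPM (25.6 to 28.4) in the dissociation library. The 2 genes thus pointed opposite ways and neither passed the 1.5-fold limit. The gene six1b was also used as a marker of the lateral line. All 3 slow fiber genes tested were called lower, beside 5.06% of all genes. The slow light chain gene myl10 was at 22.2 CPM in the FACS library against 1067 CPM in the dissociation library. Its reads in the authors' cell type tables, set over its UMIs in all cells, came to 10.6 in the FACS library and 0.477 in the dissociation library. A UMI rests on at least 1 read, so a value under 1 means that these tables lack reads of the gene. The tropomyosin gene tpm3, which many other cell types use too, was at 127 CPM in the FACS library against 223 CPM in the dissociation library (ratio 0.568, but 1.11 without the 5% of cells with most UMIs). The median ratio of these 3 genes, 0.0261 in UMIs, was 0.308 in reads summed over the authors' cell type tables that both libraries have. With cell types weighted by their reads in the dissociation library it was 0.985. By the measure given for myl10, the slow fiber gene myl13 came to 10.1 in the FACS library and 0.482 in the dissociation library. The dissociation tables thus lack reads of both genes, and these read ratios are not set against the UMI ratio. How much of the gap this makes up was not tested.

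Lens crystallins, the transparent proteins that fill lens fiber cells, were lower in the same way. The list took 0.0181% of UMIs in the FACS library and 0.00654% in the FACS and ice library, against 0.629% in the dissociation library, which is 34.7-fold lower after FACS. Only 4 of its 58 genes were tested, and all 4 were called lower, beside 5.06% of all genes. Another 28 reached 250 UMIs in the dissociation library only and 26 in neither. The gamma crystallin crygm2d17 (ENSDARG00000109861) had 255 UMIs in 30 cells of the FACS library and 15982 UMIs in 6106 cells of the dissociation library, a ratio of 0.0348 (0.0306 to 0.0393). In the FACS library its 10 richest cells held 92.2% of these UMIs, while in the dissociation library they held 9.25%. The beta crystallin crybb1 had the same split, with 90.5% of UMIs in 10 cells in the FACS library and 11.2% in the dissociation library. Gamma crystallins of this family are close copies of each other, so the counts of single members are uncertain.

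The spread over cells differed as much as the sums. With every cell thinned to 1000 UMIs (4187 FACS cells used and 422 shallower ones left out, and 8547 dissociation cells used and 2496 left out), a UMI of pvalb1 was found in 1.94% of FACS cells and 63.6% of dissociation cells, and unthinned in 5.66% of FACS cells and 93.6% of dissociation cells. A UMI of any lens crystallin was found in 3.80% of thinned FACS cells and 91.9% of thinned dissociation cells. The cell type of single cells was not analysed here, so the share in cells that should lack the gene comes from the authors' cell type tables. In the dissociation library, pvalb1 was at 45151 reads per 1000000 reads (RPM) in the table labeled head muscle and 545 to 1403 RPM in each of the other 12 tables it shares with the FACS library, from blood to retina. In the FACS library it took 246 RPM in head muscle and 2.22 to 28.3 RPM in each of the others. A share of cells with such a UMI in the dissociation library is therefore not read as a share of muscle cells, and the source of this RNA was not tested.

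**Figure D2:**
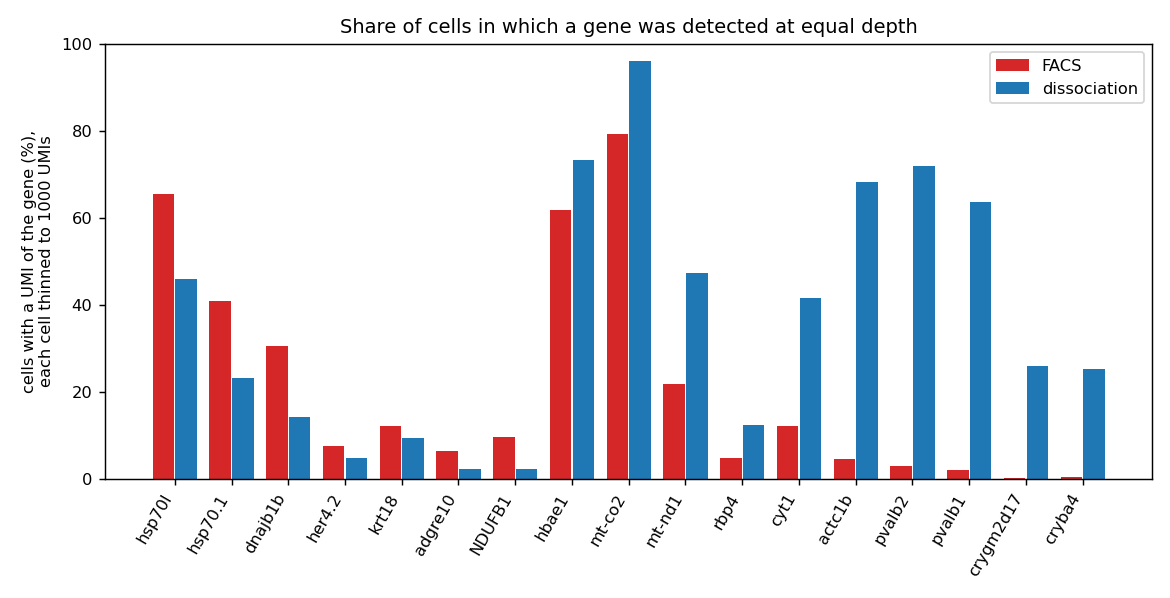
The bars give the percentage of cells with at least 1 UMI of a gene after each cell was thinned to 1000 UMIs, with the FACS library left of the dissociation library for each gene. Muscle and lens genes and the keratin cyt1 were found in far fewer FACS cells (1.94% against 63.6% for pvalb1). The genes hsp70l and dnajb1b were found in more (65.6% against 45.9% for hsp70l), as was the keratin krt18 (12.2% against 9.42%).

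Keratins and other genes of the skin were lower after FACS. Keratins, the intermediate filaments of epithelia, took 0.670% of UMIs in the FACS library and 0.722% in the FACS and ice library, against 1.76% in the dissociation library (ratio 0.381, 0.378 to 0.383). Of 16 keratins tested, 12 were called lower and 1 higher, beside 5.06% and 4.95% of all genes. The keratin cyt1 of the outer skin layer (ENSDARG00000092947) was at 1272 CPM (1257 to 1286) in the FACS library, 1466 CPM in the FACS and ice library and 3963 CPM (3946 to 3980) in the dissociation library. The keratin krt17 was at 25 CPM in the FACS library and 113 CPM in the dissociation library, a ratio of 0.221 (0.203 to 0.241), the lowest of the list. The exception was krt18, a keratin of simple epithelia, at 238 CPM (231 to 244) in the FACS library and 145 CPM (142 to 148) in the dissociation library. Its partner krt8 was at 219 CPM in the FACS library and 199 CPM in the dissociation library, so the simple keratins did not follow those of the skin. Of 12 further epidermal genes tested, 10 were called lower and none higher, and their median ratio of 0.481 turned to 1.2 in the mean of read share ratios that gives each cell type equal weight. Among the lower genes was pfn1, a profilin that binds actin, at 867 CPM in the FACS library and 2370 CPM in the dissociation library.

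Pigment, yolk and liver genes were mostly lower among those tested. Of 11 tested genes of pteridine and purine pigments, 7 were called lower and none higher, beside 5.06% and 4.95% of all genes. The member with most UMIs was gch2, which starts pteridine synthesis, at 367 CPM in the FACS library and 657 CPM in the dissociation library. Melanin genes took 0.00683% of UMIs in the FACS library and 0.0319% in the dissociation library, and of the 2 melanin genes tested 1 was called lower. Of 10 tested genes of the yolk syncytial layer and liver, 8 were called lower, including the retinol carrier rbp4 at 278 CPM (271 to 285) in the FACS library and 891 CPM (883 to 899) in the dissociation library. Genes of macrophages and leukocytes were split, with 2 of 8 tested called higher and 2 lower, a median ratio of 1.19 and a summed ratio of 0.717 (0.701 to 0.733). Their lysozyme gene lyz was at 208 CPM in the FACS library and 422 CPM in the dissociation library, with 97.4% of its UMIs in 10 cells in the FACS library and 92.2% in the dissociation library.

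Some of the most extreme ratios rested on a handful of cells. Insulin (ins), the hormone of pancreatic beta cells, had 17 UMIs in the FACS library and 14437 in the dissociation library, where 10 cells held 97.2% of them. The hatching enzyme gene he1.1 had 5 UMIs in the FACS library and 7212 in the dissociation library, 80.7% of them in 10 cells. On the other side, gnrh3, a gonadotropin-releasing hormone gene, had 1101 UMIs in 11 cells of the FACS library and 36 UMIs in 31 cells of the dissociation library, a ratio of 66.6 (47.8 to 95.6). The neuropeptide gene npffl had 392 UMIs in 25 cells of the FACS library and 23 UMIs in 22 cells of the dissociation library. In the FACS library 10 cells held 99.9% of the gnrh3 UMIs and 96.2% of the npffl UMIs, and the FACS and ice library had 0.474 CPM of each gene. The counting intervals do not cover how many such rare cells a library happened to hold.

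Transcripts of the mitochondrial genome were lower after FACS throughout. The genome encodes core subunits of the respiratory chain, and its transcripts took 0.689% of UMIs in the FACS library and 1.13% in the FACS and ice library, against 1.88% in the dissociation library (ratio 0.366, 0.364 to 0.368). All 11 tested genes were called lower, beside 5.06% of all genes, with ratios of 0.282 to 0.549. The cytochrome oxidase subunit gene mt-co2 (ENSDARG00000063908) was at 2170 CPM (2151 to 2189) in the FACS library, 3786 CPM in the FACS and ice library and 6434 CPM (6412 to 6456) in the dissociation library. The lowest ratio was that of mt-nd3, a complex I subunit, at 60.3 CPM in the FACS library and 214 CPM in the dissociation library. The highest was that of mt-co1, at 585 CPM (575 to 595) in the FACS library and 1066 CPM (1056 to 1074) in the dissociation library. In the median cell the list took 0.621% of UMIs in the FACS library and 1.65% in the dissociation library.

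Nuclear genes of oxidative phosphorylation moved less. Of 83 tested, 6 were called lower and 2 higher, beside 5.06% and 4.95% of all genes, and their median ratio was 0.789. The complex I gene ndufb11 was at 47.2 CPM (44.5 to 50.1) in the FACS library and 18.2 CPM (17.1 to 19.5) in the dissociation library, and uqcrb of complex III was at 129 CPM (125 to 134) in the FACS library and 53.7 CPM (51.7 to 55.8) in the dissociation library, the 2 genes of the list that were called higher. The complex I gene ndufa4 was lowest, at 21.2 CPM in the FACS library and 55.9 CPM in the dissociation library, but its ratio came to 1.28 in the equal-weight mean over cell types. A further gene, annotated as NDUFB1 and not on the list, was at 87.2 CPM (83.5 to 91.1) in the FACS library, 34.2 CPM in the FACS and ice library and 21.8 CPM (20.5 to 23.1) in the dissociation library, a CPM ratio of 4.01 (3.72 to 4.32) for FACS over dissociation. It was spread over 1433 FACS cells and 896 dissociation cells, and after thinning 9.68% of FACS cells and 2.23% of dissociation cells had a UMI of it.

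Heat shock and chaperone genes were the clearest group of stress genes on the higher side. Their 36 genes took 1.02% of UMIs in the FACS library and 1.24% in the FACS and ice library, against 0.734% in the dissociation library (ratio 1.391, 1.384 to 1.398). Of 27 tested, 9 were called higher and 1 lower, beside 4.95% and 5.06% of all genes, and 22 had a ratio above 1, as did 64.8% of all genes. The median ratio was 1.23 for FACS over dissociation, and 1.61 for FACS and ice over the same dissociation library.

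The highest ratio was that of dnajb1b (ENSDARG00000041394), a co-chaperone of the Hsp40 type that hands unfolded proteins to Hsp70. It was at 357 CPM (350 to 365) in the FACS library, 567 CPM in the FACS and ice library and 133 CPM (130 to 136) in the dissociation library, a ratio of 2.69 (2.60 to 2.78). Next was hsph1, which helps Hsp70 exchange its nucleotide, at 34 CPM (31.7 to 36.5) in the FACS library, 43.6 CPM in the FACS and ice library and 13.3 CPM (12.3 to 14.3) in the dissociation library. Both levels were highest after FACS and ice.

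Inducible Hsp70 is the main refolding chaperone of heated cells. The gene hsp70l (ENSDARG00000055723) was at 1350 CPM (1335 to 1365) in the FACS library, 1319 CPM in the FACS and ice library and 661 CPM (654 to 668) in the dissociation library. The ratios of hsp70l, hsp70.1, hsp70.2 and hsp70.3 were 2.04, 2.07, 1.97 and 1.92, and hsp70.1, at 499 CPM in the FACS library, 505 CPM in the FACS and ice library and 241 CPM in the dissociation library, shows that the sorted libraries were close. These 4 genes are near-identical copies and reads may have been split between them, so the values are not independent. After thinning, 65.6% of FACS cells and 45.9% of dissociation cells had a UMI of hsp70l, and without thinning it was found in 87.0% of FACS cells and 67.8% of dissociation cells.

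The Hsp90 family was divided. The inducible form hsp90aa1.2 was at 646 CPM (636 to 657) in the FACS library, 1077 CPM in the FACS and ice library and 418 CPM (412 to 424) in the dissociation library, a ratio of 1.55 (1.51 to 1.58). The constitutive form hsp90ab1 was at 2160 CPM in the FACS library, 3288 CPM in the FACS and ice library and 1943 CPM in the dissociation library, and was not called. The form hsp90aa1.1, which in zebrafish is made in developing muscle and helps myosin fold, was the only gene of the list called lower, at 17.8 CPM (16.1 to 19.6) in the FACS library, 20.0 CPM in the FACS and ice library and 40.2 CPM (38.5 to 42.0) in the dissociation library. In reads weighted by cell type its ratio turned to 1.47. Of the helpers of Hsp90, ahsa1b, which stimulates its ATPase, had a ratio of 1.67 (1.53 to 1.83) and chordc1b one of 1.60 (1.39 to 1.85), which came to 0.956 in reads of the shared tables. The constitutive Hsp70 gene hspa8 was at 1706 CPM (1689 to 1723) in the FACS library and 1501 CPM (1490 to 1512) in the dissociation library, and the small chaperone gene hspb1, abundant in muscle and skin, was at 65.9 CPM in the FACS library and 95.3 CPM in the dissociation library.

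**Figure D3:**
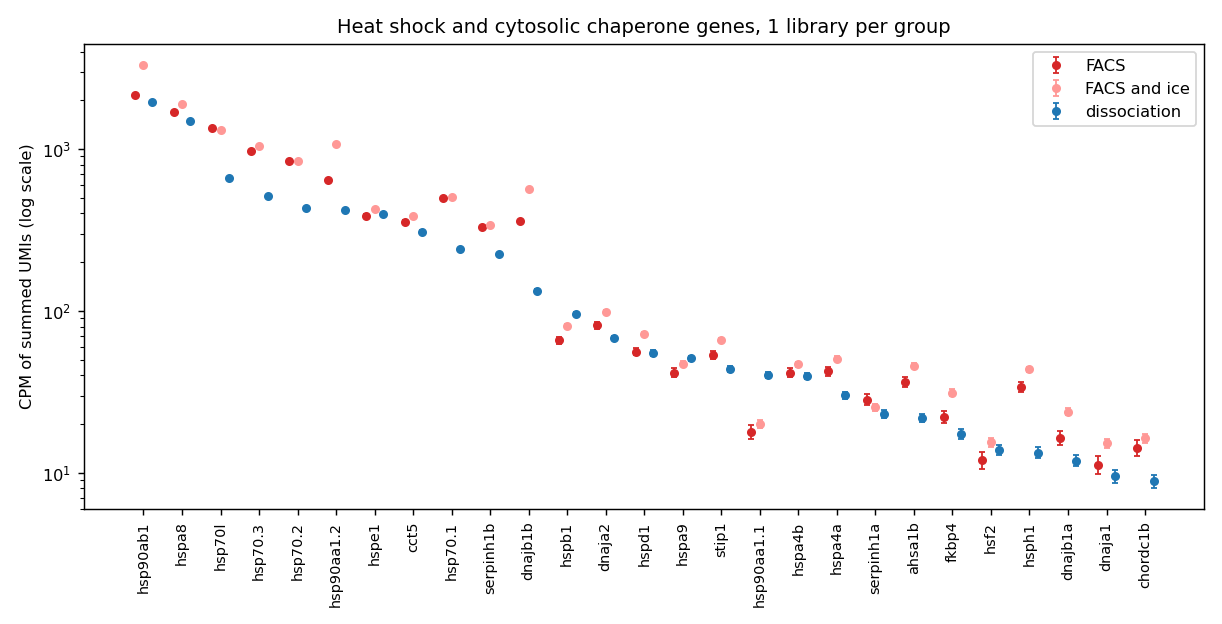
Points give the CPM (log axis) of the tested heat shock and chaperone genes in the FACS, the FACS and ice and the dissociation library, 1 library per group, with exact Poisson 95% intervals for counting error. The 4 hsp70 copies and dnajb1b lie 1.92- to 2.69-fold above the dissociation library after FACS, and hsp90aa1.1 lies below it (17.8 against 40.2 CPM).

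Immediate early genes differed little. Of 31 tested of 63, 2 were called higher (background 4.95%) and 1 lower, with a median ratio of 1.1. The AP-1 subunit gene jun was at 103 CPM (98.7 to 107) in the FACS library, 117 CPM in the FACS and ice library and 71.2 CPM (68.8 to 73.5) in the dissociation library. Its partner fosab was at 52.8 CPM in the FACS library, 60 CPM in the FACS and ice library and 41.0 CPM in the dissociation library, a ratio of 1.29 (1.2 to 1.38). The zinc finger gene egr1 was at 14.7 CPM (13.2 to 16.3) in the FACS library, 7.30 CPM in the FACS and ice library and 10.9 CPM (9.96 to 11.8) in the dissociation library. The 2 genes called higher, cyr61 at 16.4 CPM in the FACS library against 9.62 CPM in the dissociation library and ctgfa at 18.3 CPM in the FACS library against 11.9 CPM in the dissociation library, encode matrix proteins induced by stretch and adhesion signals. At under 10.8 CPM in the dissociation library, cyr61 could pass the minimum only if higher after FACS. The gene called lower was cebpd, a factor of inflammation, at 13.1 CPM in the FACS library and 21.1 CPM in the dissociation library, with a ratio of 1.34 in the equal-weight mean over cell types. Of 19 genes of endoplasmic reticulum stress 1 was called higher and none lower. Of 19 genes of oxidative and metal stress none was called higher and 5 lower, beside 5.06% of all genes called lower.

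Notch target genes had one of the highest list medians. Many her and hey genes encode repressors that Notch signaling switches on in progenitors, and they are known for short-lived transcripts and proteins. Of 12 tested, 8 were called higher and none lower, beside 4.95% and 5.06% of all genes, with a median ratio of 1.78. Their UMIs took 0.0888% of the FACS library and 0.100% of the FACS and ice library, against 0.0522% of the dissociation library (ratio 1.70, 1.67 to 1.73). In reads summed over the cell type tables that both libraries have, the median ratio of the list was 1.115. With cell types weighted by their reads in the dissociation library, the median was 1.365. The gene her4.2 was at 101 CPM (97.2 to 105) in the FACS library, 93.9 CPM in the FACS and ice library and 47.6 CPM (45.7 to 49.6) in the dissociation library. The gene her2 was at 30.2 CPM (28.0 to 32.5) in the FACS library, 38.2 CPM in the FACS and ice library and 12.7 CPM (11.7 to 13.7) in the dissociation library. Lower in the list was hes6, which in mouse works against Hes1, at 131 CPM in the FACS library and 109 CPM in the dissociation library. Copies of her4 are nearly the same in sequence, so her4.2 may hold reads of its neighbors.

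Other genes of the nervous system were close to the median. Of 13 proneural and Delta genes 1 was called higher, of 23 progenitor and radial glia genes 1, and of 35 pan-neuronal genes none, with no gene of these 3 lists called lower. Over all genes 4.95% were called higher and 5.06% lower. The progenitor gene called higher was gfap, the filament of radial glia, at 26.6 CPM (24.6 to 28.8) in the FACS library, 23.3 CPM in the FACS and ice library and 10.5 CPM (9.60 to 11.4) in the dissociation library, with 42.8% of its FACS UMIs and 55.8% of its dissociation UMIs in 10 cells. At under 10.8 CPM in the dissociation library, gfap could pass the minimum only if higher after FACS. The member with most UMIs, the lipid carrier gene fabp7a, was at 3417 CPM in the FACS library and 3747 CPM in the dissociation library.

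Hemoglobin was higher in the sum and lower in most cells. Embryonic globins, which carry oxygen in red cells, took 11.2% of UMIs in the FACS library and 6.68% in the FACS and ice library, against 6.58% in the dissociation library (ratio 1.700, 1.698 to 1.703). Of 8 tested, 6 were called higher, beside 4.95% of all genes, with ratios of 1.49 to 1.99. The alpha globin gene hbae1 was at 27769 CPM in the FACS library, 14311 CPM in the FACS and ice library and 13969 CPM in the dissociation library. In the median cell, however, globins took 0.475% of UMIs in the FACS library and 1.02% in the dissociation library, and after thinning 61.9% of FACS cells and 73.2% of dissociation cells had a UMI of hbae1. Without the 5% of cells with most UMIs in each library, the median ratio of the list, 1.66 with all cells, turned to 0.771, so the direction rested on the deepest cells. Other erythroid genes were higher too, with 6 of 10 called, and the red cell carbonic anhydrase gene cahz was at 133 CPM in the FACS library, 85.6 CPM in the FACS and ice library and 71.8 CPM in the dissociation library. Without the deepest cells the median of this list turned to 0.927 as well. Globin genes lie in a cluster of close copies, and their single values are uncertain.

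Transcription factors of the pharyngeal arches had a high list median. Of 23 tested transcription factors of the arches, which form jaw and gill skeleton, 12 were called higher and none lower. Over all genes 4.95% were called higher and 5.06% lower. The list had a median ratio of 1.54 and a summed ratio of 1.43 (1.41 to 1.46). In reads, with cell types weighted by their reads in the dissociation library, the median of the list was only 1.1. The 12 include nkx3.2, which was under 10.8 CPM in the dissociation library, and such genes were not counted apart. Here twist1b, a factor of neural crest mesenchyme, was at 26.2 CPM (24.2 to 28.4) in the FACS library, 23.4 CPM in the FACS and ice library and 12.2 CPM (11.3 to 13.2) in the dissociation library, though its ratio was 0.997 in the equal-weight mean over cell types. The jaw joint gene nkx3.2 was at 21.6 CPM (19.7 to 23.5) in the FACS library, 20.9 CPM in the FACS and ice library and 10.7 CPM (9.85 to 11.7) in the dissociation library. Of 21 collagens tested 7 were called higher and 1 lower, and of 18 genes of fin fold and fibroblast matrix 6 were called higher and none lower, beside 4.95% of all genes called higher. The summed ratios were near 1, at 1.12 (1.11 to 1.13) for collagens and 1.03 (1.02 to 1.04) for the matrix list. Fibrillar col1a1a, the collagen with most UMIs, was not among the called genes, at 673 CPM (662 to 684) in the FACS library and 619 CPM (612 to 626) in the dissociation library. Of 9 Hox genes 2 were called higher, with hoxb9a, a gene of the trunk, at 13.2 CPM in the FACS library and 6.12 CPM in the dissociation library. Both nkx3.2 and hoxb9a were under 10.8 CPM in the dissociation library, so they could pass the minimum only if higher after FACS.

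The highest ratios of all tested genes were in part bone genes of few cells. Both ifitm5 and col10a1a were under 10.8 CPM in the dissociation library, so they could be tested only if higher after FACS. The top gene, ifitm5, is made by osteoblasts and was at 40.8 CPM (38.3 to 43.5) in the FACS library, 19.5 CPM in the FACS and ice library and 7.49 CPM (6.76 to 8.29) in the dissociation library, a ratio of 5.45 (4.83 to 6.16). Its UMIs lay in 59 FACS cells and 74 dissociation cells, with 94.8% of the FACS UMIs and 83.0% of the dissociation UMIs in the 10 richest cells. In reads only 1 table had enough of it in both libraries, with a ratio of 0.233. That value leaves out cartilage. There ifitm5 took 725 RPM in the FACS library, against 12.6 RPM in its other tables together. Collagen X, col10a1a, made by osteoblasts and mature cartilage cells of fish, was at 42.5 CPM (39.9 to 45.3) in the FACS library, 29.8 CPM in the FACS and ice library and 9.94 CPM (9.09 to 10.8) in the dissociation library, in 22 FACS cells and 34 dissociation cells. By contrast adgre10, an adhesion receptor gene with a ratio of 3.10 (2.85 to 3.38), was spread over 819 FACS cells and 679 dissociation cells.

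Ribosomal, cell cycle and reference genes had few calls. Of 79 cytosolic ribosomal protein genes tested 4 were called higher and none lower, close to the 4.95% of all genes called higher, with a median ratio of 1.03 and 36.4% of UMIs in the FACS library, 36.8% in the FACS and ice library and 34.1% in the dissociation library. The 4 included rpl38, at 5626 CPM (5595 to 5656) in the FACS library, 4572 CPM in the FACS and ice library and 2906 CPM (2891 to 2920) in the dissociation library, and rpl29, at 4544 CPM in the FACS library and 2646 CPM in the dissociation library. Of 42 genes of DNA replication 2 were called higher and of 44 of mitosis none, with none lower in either list. Among 6 reference genes none was called, and their ratios ran from 0.969 for ppiab, a peptide bond isomerase, to 1.48 for actb2, a cytoplasmic actin at 2420 CPM in the FACS library and 1636 CPM in the dissociation library. A gene close to 1 was rps18, at 1602 CPM (1586 to 1619) in the FACS library and 1558 CPM (1547 to 1569) in the dissociation library.

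**Figure D4:**
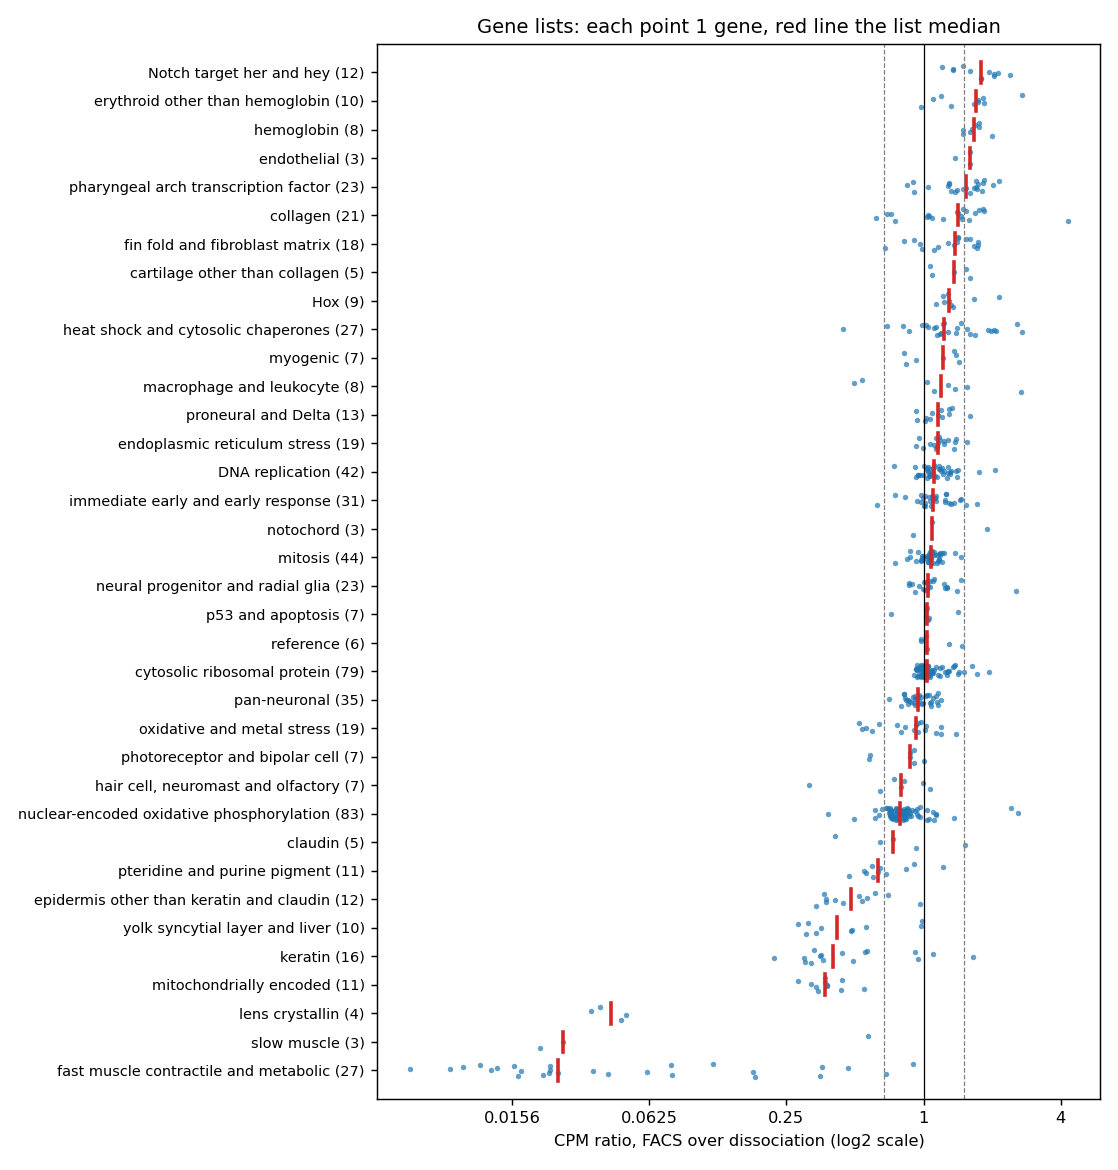
Each point is 1 gene with at least 250 UMIs in both libraries, placed by its CPM ratio, FACS over dissociation, on a log2 axis, and each red line is the median of a list. Fast muscle (median 0.025), slow muscle (0.0261) and lens crystallins (0.0425) lie farthest left and Notch targets (1.78), other erythroid genes (1.69) and hemoglobin (1.66) farthest right.

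The authors sorted cells into types and summed reads per type, separately for each library. Of 16 type names, 13 were found in both libraries, 2 (proliferative region and proliferating pharyngeal arch) in the FACS library only and 1 (muscle) in the dissociation library only. Blood took 23.2% of reads in the FACS library and 14.8% in the dissociation library, pectoral fins 1.87% in the FACS library and 1.1% in the dissociation library, and cartilage 4.47% in the FACS library and 3.04% in the dissociation library. Head muscle took 2.22% in the FACS library and 8.59% in the dissociation library, a ratio of 0.259. Pharynx took 1.48% in the FACS library and 3.46% in the dissociation library, lateral line with peripheral and olfactory organs 2.05% in the FACS library and 4.84% in the dissociation library, and pigment cells 1.85% in the FACS library and 4.06% in the dissociation library. The table labeled epidermis took 10.1% in the FACS library and 7.78% in the dissociation library, and macrophages 1.80% in the FACS library and 1.47% in the dissociation library, both higher after FACS, unlike the UMI sums of the epidermal and the macrophage lists. The nervous system took 22.8% in the FACS library and 33.3% in the dissociation library, where no proliferative region (8.95% of FACS reads) was set apart.

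The labels were checked against marker genes. In both libraries every marker of blood, of vessels, of cartilage and of head muscle was highest in its own table. For the table labeled epidermis, 0 of 7 epidermal markers were highest there in either library, and it was led by matrix genes such as vwde, tnn and col1a2. The epidermal keratins were highest in the table labeled pharynx, where cyt1 took 48151 RPM in the FACS library and 85086 RPM in the dissociation library, and where 4 of 6 pharynx markers were absent in the FACS library and 1 in the dissociation library. The table labeled muscle was led by lens crystallins, and 0 of 8 muscle markers were highest in it. These markers were highest in the table labeled head muscle in both libraries. Matches were partial elsewhere. Of the lateral line markers 2 of 6 were highest in their own table in the FACS library and 5 of 6 in the dissociation library, in retina 3 of 7 in the FACS library and 5 of 7 in the dissociation library, and in the pharyngeal arch 0 of 6 in the FACS library, which has a proliferating arch table too, and 3 of 6 in the dissociation library. For pectoral fins, macrophages and the nervous system 4 or more markers were highest in their own table in each library. For pigment cells 6 of 6 were highest there in the FACS library and 3 of 6 in the dissociation library. In the latter, 3 melanin genes were highest in the pectoral fin table. All such tables are therefore called by their labels only, with these genes in mind.

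Within tables, hsp70l and dnajb1b were higher after FACS wherever they had enough reads. The read share of hsp70l was above that of the dissociation library in 13 of 13 tables, with ratios of 1.3 in blood to 2.79 in the nervous system. In the nervous system it took 1576 RPM in the FACS library against 565 RPM in the dissociation library, and in blood 312 RPM in the FACS library against 240 RPM in the dissociation library. The co-chaperone dnajb1b had enough reads in 10 tables and was above 1 in all 10, at 2.38 to 5.18. The ratio of hsp90aa1.2 was above 1 in 13 of 13 as well, at 1.02 in retina to 3.48 in head muscle, whereas hspa8 was above 1 in 8 and hsp90ab1 in 7 of 13. For fosab this held in 5 of 5 tables (1.35 to 2.1) and for jun in 8 of 8 (1.03 to 3.00). Beside these ratios stand table medians over all genes of 1.83 in head muscle, 1.08 in the nervous system, 0.893 in retina and 0.745 in blood. The cell types came from 1 suspension per library and are not replicates, so these counts describe the 2 libraries.

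Read shares of mitochondrial transcripts were lower in nearly every table. The ratio of mt-co2 was 0.300 in the pharyngeal arch to 0.553 in the lateral line table and that of mt-nd1 0.320 to 0.609, both lower in 13 of 13, and mt-co1 was lower in 12 of 13 with 1.02 in the lateral line table. The median ratio of the list lay between 0.352 in head muscle and 0.716 in the lateral line table. When cell types were weighted by their reads in the dissociation library, the median ratio of the list was 0.444, and when only the weights of the types changed it was 0.843. For the heat shock list the same values were 1.19 with weights held and 0.940 with only the weights changed. For globins, 1.18 was found with weights held and 1.65 with only the weights changed, and for pharyngeal arch factors 1.1 and 1.23 in this order. Both splits use reads and the tables in common, so they do not add up to the UMI ratio.

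Head muscle stood apart from all other tables. There the median read share ratio of all genes with enough reads was 1.83, with 658 of 1011 genes (65.1%) called higher and 73 (7.22%) lower. The fast muscle list took 2.02% of its reads in the FACS library and 37.6% in the dissociation library, which left a larger remainder to other transcripts. How much of the shift of the table this makes up was not tested. In head muscle the myogenic gene myog was at 507 RPM in the FACS library and 133 RPM in the dissociation library. The muscle light chain gene mylpfa was at 1437 RPM in the FACS library and 28810 RPM in the dissociation library. Whether the 2 tables hold the same kinds of muscle cell was not tested. In the table of the FACS library, actc1b took 3475 RPM, against 57868 RPM in the dissociation library. Blood lay on the other side, with a median ratio of 0.745, 438 of 1323 genes (33.1%) called lower and 32 (2.42%) higher. Ratios within a table are therefore read beside that table's own median.

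**Figure D5:**
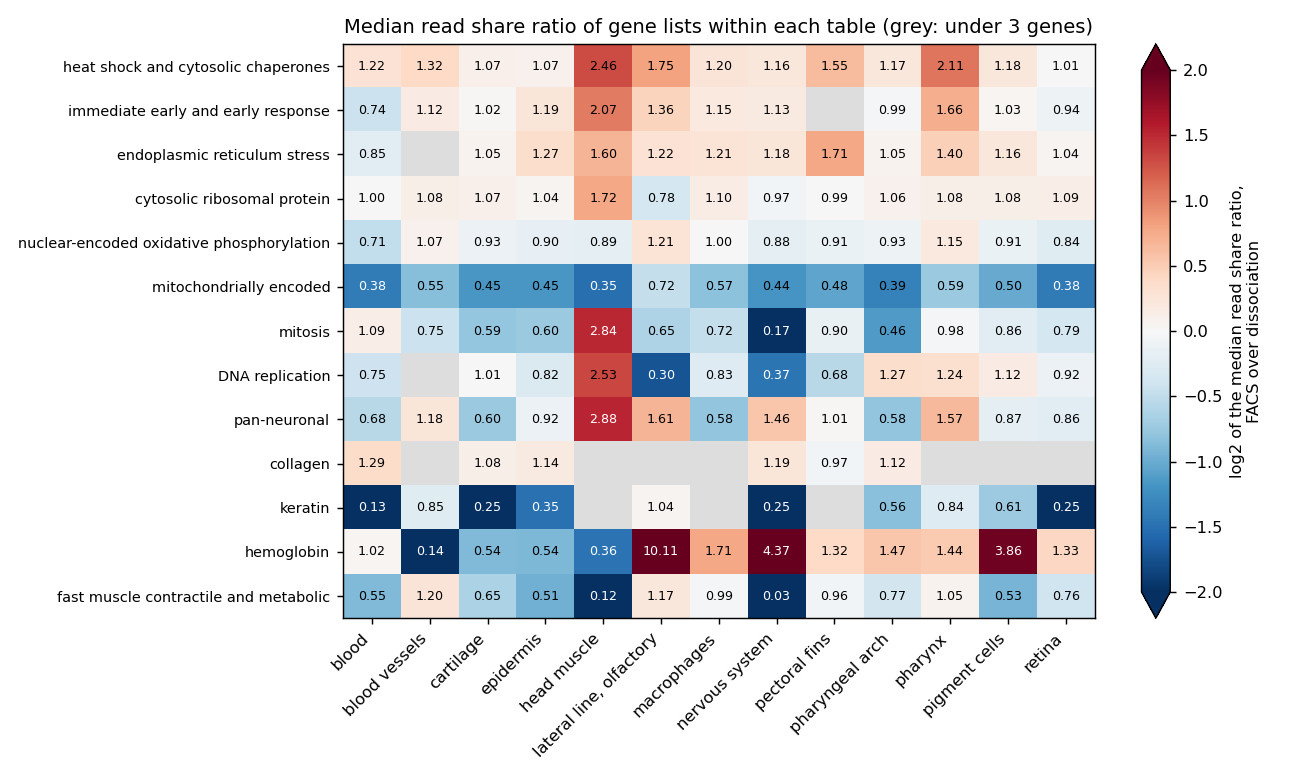
Each cell gives the median read share ratio, FACS over dissociation, of a gene list within 1 cell type table, colored on a log2 scale and gray where under 3 genes had enough reads. Mitochondrially encoded genes are below 1 in all 13 tables (0.352 to 0.716) and heat shock genes above 1 in all 13 (1.01 to 2.46). The table medians over all genes were 1.83 in head muscle and 0.745 in blood, so these columns are read beside them.

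Cell cycle lists had unlike ratios in the tables and in the UMIs of all cells. In the table labeled nervous system the median ratio of 26 mitosis genes was 0.169 and that of 39 DNA replication genes 0.365, while over all cells the UMI ratios of these lists were 1.07 and 1.11. With the proliferative region added to the nervous system table, more genes had enough reads. The mitosis list then came to 1.11 (57 genes). The DNA replication list came to 0.597 (51 genes), with 31 genes still called lower, and the reason was not tested. By their labels, proliferating cells had tables of their own in the FACS library and none in the dissociation library. The Notch list in the nervous system came to 1.41 as deposited and to 1.2 with the proliferative region added.

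Of 1424 genes with enough reads in at least 5 tables, 87 (6.11%) had a ratio above 1 in every one and 94 (6.60%) below 1 in every one. The 87 held 19 of 79 ribosomal protein genes and 6 of 16 heat shock genes, and the 94 held 7 of 9 mitochondrial genes. The top of the first group was rpl38, with a median read share ratio of 4.08 and a UMI ratio of 1.94. Next came ost4, a small subunit of the oligosaccharyl transferase, at 3.60 in reads and 1.68 in UMIs, and rps29 at 3.48 in reads and 1.64 in UMIs. Reads per UMI are the reads of a gene in all cell type tables of a library over its UMIs in all cells. Reads and UMIs parted here: rpl38 had 7.83 reads per UMI in the FACS library and 1.73 in the dissociation library, against medians over all genes of 6.95 in the FACS library and 3.39 in the dissociation library. For dnajb1b the measures stayed close, at 2.91 in reads and 2.69 in UMIs. Across the 4562 genes the ratio of reads per UMI and the UMI ratio had a Spearman rho of -0.145, a description over genes that share 2 libraries. By construction, the read share of a gene over all tables rises with its reads per UMI. The ratio of reads per UMI had a median of 2.87 for the 87 genes, 1.98 for the 94 and 2.03 over all 4562. In UMIs, 69 of the 87 had a ratio above 1 and 68 of the 94 one below 1. The part of reads per UMI within single tables was not tested.

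Among genes that are lower in every table, pvalb2, actc1b, cyt1 and mt-co2 were already low in UMIs. The median read share ratio was 0.0139 for pvalb2, 0.0365 for actc1b and 0.246 for cyt1. Tables that should lack pvalb2 had lower read shares of it as head muscle did. In blood it took 8.42 RPM in the FACS library and 752 RPM in the dissociation library.

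Labeled detections, each a gene in a cell with at least 1 UMI of 2 or more T-to-C substitutions, made up 3.73% (3.71 to 3.75) of gene detections in the FACS library and 2.80% (2.79 to 2.81) in the dissociation library. Over 3849 genes detected often enough, the median labeled share was 1.03% in the FACS library and 0.734% in the dissociation library. For the genes called higher it was 1.93% in the FACS library and 1.23% in the dissociation library, and for those called lower 1.27% in the FACS library and 0.935% in the dissociation library. The labeled share was higher in the FACS library for 2597 of the 3849 genes and for 25 of 26 heat shock genes. Among the latter, dnajb1b was at 42.1% (40.2 to 43.9) in the FACS library and 32.1% (30.6 to 33.7) in the dissociation library. Notch targets were the most labeled of these lists, with medians of 54.3% in the FACS library and 35.9% in the dissociation library, and her4.2 reached 78.6% (75.3 to 81.7) in the FACS library against 53.3% (50.3 to 56.2) in the dissociation library. Of 11 mitochondrial transcripts 4 had a higher labeled share in the FACS library, and the medians were 4.36% in the FACS library and 5.52% in the dissociation library. Labeled shares are not read as shares of new RNA, since the globin gene hbae1 was labeled in 79.6% of FACS detections and 89.4% of dissociation detections. The labeled share of a gene rises with its UMIs in a cell and with the reads behind each UMI, both of which were higher in the FACS library, and 4sU was met once more after the sort, so their parts cannot be told apart.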

How the data were processed

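The authors aligned reads with Cell Ranger 6.1.1 to the GRCz10 build, added mismatch tags with SAMtools 1.14 and deposited, per library, a UMI count matrix (genes by cells). They also deposited, per cell type of their own Seurat annotation (made for each library apart), read counts per gene, substitution rates as a ratio at a base quality of at least 20 (the ratios were not used), and counts of genes with a UMI of 2 or more T-to-C substitutions per cell.

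Here UMIs were summed over all cells of the matrix, with identifiers that share a symbol added up, and divided by the library total. No column was left unmapped. Doublets were not called and no filter on cells was added. Genes entered with at least 250 UMIs in both libraries, or 250 reads in both tables of a cell type. A count under 3 was set to a floor of 3 only where genes over the minimum in 1 library alone were counted. The ratios at a minimum of 1 UMI in both libraries had no floor. Thinned shares are hypergeometric expectations. With 1 library per group no model was fitted, and the ratio step was tested on simulated data. Versions were Python 3.11.15, numpy 2.4.6, pandas 2.3.3, scipy 1.17.1 and matplotlib 3.10.9.

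The text names the 12 highest and 12 lowest ratios, the 10 highest and 10 lowest among genes over the minimum in 1 library only, the 10 highest and 10 lowest among genes on the same side of 1 in every table, the 2 highest, the 2 lowest and the member with most UMIs in each of 39 gene lists (all members for heat shock, immediate early, mitochondrially encoded and hemoglobin genes), and reference genes, or a choice from these. The genes vwde, tnn, col1a2, myog and mylpfa fall outside this rule and were chosen after their values were seen. The members, gene lists and thresholds were chosen with earlier results of these data known. Alternatives covered the count minimum, the scaling, the cells and the use of reads; those for muscle, lens and mitochondrial scaling, an equal CPM minimum and merged tables were added after seeing the data.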

Additional observations from a re-analysis of the deposited data

Results flagged for a closer look

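For 5 gene lists, the median read share ratio (FACS over dissociation) was at least 1.5 in 1 cell type table and on the opposite side of the 1.5-fold limit in another, among tables with at least 5 genes of the list. The difference between tables was not tested, since each library was made once. Pan-neuronal genes had a median of 2.88 in head muscle (7 genes) and 0.579 in the pharyngeal arch (17 genes). Hemoglobin genes had a median of 10.1 in the table of lateral line with peripheral and olfactory organs (7 genes) and 0.136 in blood vessels (6 genes). Epidermal genes other than keratins and claudins had a median of 1.77 in the lateral line table (10 genes) and 0.458 in the nervous system (5 genes). DNA replication genes had a median of 2.53 in head muscle (6 genes) and 0.365 in the nervous system (39 genes), and mitosis genes one of 2.84 in head muscle (7 genes) and 0.169 in the nervous system (26 genes). Beside these stand the table medians over all genes, 1.83 in head muscle, and the separate proliferating tables of the FACS library.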

How the results depend on the processing

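The main counts were 226 genes higher and 231 lower, with a median ratio of 1.066. A minimum of 100 UMIs gave 449 higher and 428 lower, and 1 UMI gave 3560 and 3305. A minimum of 1000 UMIs gave 73 higher and 81 lower, and 250 UMIs in either library gave 725 lower. Without the 5% of cells with most UMIs 129 genes were lower, 445 genes were lower in reads of the shared tables, and in the equal-weight mean over cell types 351 were higher. The median ratio came to 1.044 at 1000 UMIs and at an equal CPM minimum, 1.053 at 1 UMI, 1.030 at 250 UMIs in either, 1.121 with hemoglobin out of the total, 1.107 with mitochondrial genes out too, 1.004 with muscle, lens and mitochondrial genes out, 1.000 by construction with median scaling, 1.093 without the deepest cells, 1.076 as a mean over cells, 0.930 in reads, 1.029 in reads weighted by cell type and 0.997 in the equal-weight mean. Over all pairs of gene and cell type, 2607 were higher and 2329 lower, with a median of 0.980. A minimum of 100 reads gave 5631 higher and 5552 lower, and 1000 reads gave 903 and 633 with a median of 0.985. That median was 0.993 with hemoglobin out and 0.967 with merged tables.

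Directions turned without the deepest cells for the hemoglobin list (0.771), the other erythroid list (0.927), hbae1 (0.904), cahz (0.925) and tpm3 (1.11). In the equal-weight mean over cell types they turned for the endothelial list (0.946), the epidermal list without keratins and claudins (1.2), cebpd (1.34), ndufa4 (1.28), tpm3 (1.04) and twist1b (0.997). The value of ifitm5 was 0.233 there, but it came from 1 table and left out cartilage, where ifitm5 was among the leading FACS genes. In reads, chordc1b turned to 0.956, and in reads weighted by cell type hsp90aa1.1 turned to 1.47 and tpm3 to 1.04. Beyond the deepest cells and the choice of tables, the cause was not tested. No paired analysis was possible because each group had 1 library and the result comes from no test. Depth limited the FACS library: 3 UMIs stand for 0.130 CPM there and 0.0596 CPM in the dissociation library.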
